A study of Mus musculus with 8 samples.

Results

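The Gadd45 family and the p53 growth arrest and apoptosis programme were followed by RNA-seq in mouse liver through 10 genes, chosen by symbol among the 23337 genes in the count files: Gadd45a, Gadd45b, Gadd45g, Cdkn1a, Btg2, Ccng1, Mdm2, Trp53inp1, Bax and Phlda3. All 10 were found in every file and all 10 passed the filter on low counts, so no member is left out below. The livers came from C57BL/6 mice of 12 weeks, either WT or HRD1Alb, in which Cre driven by the albumin promoter removes the floxed HRD1 gene from hepatocytes from early liver development on. The labels give the second genotype as Hrd1-/-. The study describes its control mice as carrying the floxed gene without Cre, and names the RNA-seq controls WT. Mice of each genotype were fasted overnight, or were refed for 4 h after such a fast, so that each of the 4 groups holds 2 of the 8 samples. The labels do not say whether the 2 samples of a group came from separate mice, so the p-values measure only the spread between these samples, which may be technical.

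p53 is a transcription factor that is held low by its ubiquitin ligase Mdm2 and accumulates after DNA damage and other stresses. It then switches on genes that stop the cell cycle (Cdkn1a, Btg2, Ccng1), genes that promote cell death (Bax, Trp53inp1, Phlda3) and Mdm2 itself, which closes a feedback loop. The 3 Gadd45 proteins are small stress sensors that bind p21, proliferating cell nuclear antigen and the kinase MTK1. Gadd45a is a classical p53 target, whereas Gadd45b and Gadd45g are best known as genes induced by cytokines and growth factors. Several of these genes also answer to p53-independent signals, among them nutrient and endoplasmic reticulum (ER) stress. HRD1 is a ubiquitin ligase of the ER membrane that removes misfolded proteins.

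The promoters were read first for the sequence that p53 binds, the 10-base half-site, since this is the feature by which the genes are usually grouped. RefSeq windows of GRCm38.p6, each 300 bases around a transcription start, were at hand for 9 of the 10 genes, with 2 starts for Cdkn1a. Trp53inp1 had no window. A p53 half-site, searched on both strands, lay in 5 of the 10 windows and in 8.36% of the 32851 windows of all genes. The matches follow 5' to 3' on the strand of the gene, with the half-site in capitals.

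Gadd45a, chr6:67037428-67037457, minus strand: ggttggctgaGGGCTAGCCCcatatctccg

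Cdkn1a, chr17:29090896-29090925, plus strand: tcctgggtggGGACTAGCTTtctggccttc

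Cdkn1a, chr17:29090918-29090947, plus strand: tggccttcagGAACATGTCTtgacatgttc

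Ccng1, chr11:40755452-40755481, minus strand: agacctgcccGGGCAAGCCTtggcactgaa

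Mdm2, chr10:117710925-117710954, minus strand: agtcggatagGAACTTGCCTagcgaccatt

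Bax, chr7:45467080-45467109, minus strand: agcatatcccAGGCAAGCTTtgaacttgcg

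Counted from the start site of their window, the half-sites begin at -40 in Gadd45a and at -73 and -51 in Cdkn1a. They begin at -185 in Ccng1, at -186 in Mdm2 and at -201 in Bax. Both Cdkn1a matches lay in the window of its upstream start, chr17:29090729-29091028. The window of the other Cdkn1a start (chr17:29093519-29093818) and those of Gadd45b, Gadd45g, Btg2 and Phlda3 did not hold these letters. This says nothing of sites elsewhere. The Btg2 window held the cyclic AMP response element TGACGTCA, present in 1.79% of all windows, and it is shown with that element in capitals.

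Btg2, chr1:134079303-134079332, minus strand: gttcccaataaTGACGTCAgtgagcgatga

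The element TGATGCAAT, a composite site for CHOP and ATF factors, was in none of the 10 windows and in 0.192% of all. A TATA box, with the letters TATAAA, was present in the windows of Gadd45b and Gadd45g and in 13.6% of all windows. The ATF4 half-site TGATG, which lies within the composite site, was in 5 of the 10 windows and in 39.3% of all. A CCAAT box was in 6 of the 10 windows and in 37.4% of all. A GC box (GGGCGG) was in 7 of the 10 windows and in 35.7% of all. Each of these was searched on both strands. These matches are descriptions of sequence, and binding was not measured.

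Total counts per library ranged from 40210576 to 49117080, and counts of the 10 genes in a library ranged from 20 to 14596. Levels are given as CPM, the counts scaled to library size, with the TMM factors of edgeR, and on that scale 3 counts correspond to 0.0508 to 0.0788 CPM. The targeted gene, listed as Syvn1, was at 111 and 99.8 CPM in fasted WT liver and at 32.6 and 31.5 CPM in fasted HRD1Alb liver. After refeeding it was at 637 and 305 CPM in WT and at 453 and 132 CPM in the libraries labelled HRD1Alb. The fasted groups did not overlap, whereas the refed ones did, so the targeted gene does not separate the refed libraries by their labels. Lower values without overlap were shown by 34.2% of all tested genes in fasted liver. By the edgeR test defined below, Syvn1 did not pass in fasted liver (log2 difference -1.72, SE 0.561, adjusted p = 0.170). Nor did it pass in refed liver (-0.69, SE 0.547, adjusted p = 0.391). A count for the whole gene includes exons outside the deleted part, which is not given in the sources used here. The 2 refed libraries labelled HRD1Alb were also unlike each other, with 3204 genes at least 2-fold apart, against 424 to 1141 genes in the other groups, and this does not say which of them departs. Results of the 10 genes that rest on this pair are therefore also given without replicate 1 and without replicate 2. As this is bulk tissue, fewer cells of a type and less RNA per cell cannot be told apart.

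Trp53, which encodes p53, did not pass the test between genotypes. Its values were 20.6 and 20.3 CPM in fasted WT, 19.9 and 19.1 CPM in fasted HRD1Alb, 27.3 and 28.5 CPM in refed WT and 36.3 and 28.1 CPM in refed HRD1Alb liver. The difference between genotypes was -0.07 on the log2 scale in fasted liver (SE 0.171, adjusted p = 0.887) and 0.20 in refed liver (SE 0.171, adjusted p = 0.411). Here and below, adjusted p is that of edgeR's quasi-likelihood test after Benjamini-Hochberg adjustment over the 14328 genes tested, and genes were called at 0.05. On refeeding, Trp53 rose by 0.72 in HRD1Alb liver (SE 0.171, adjusted p = 0.0415), and the difference in WT liver was 0.45 (SE 0.171, adjusted p = 0.249).

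**Figure D1:**
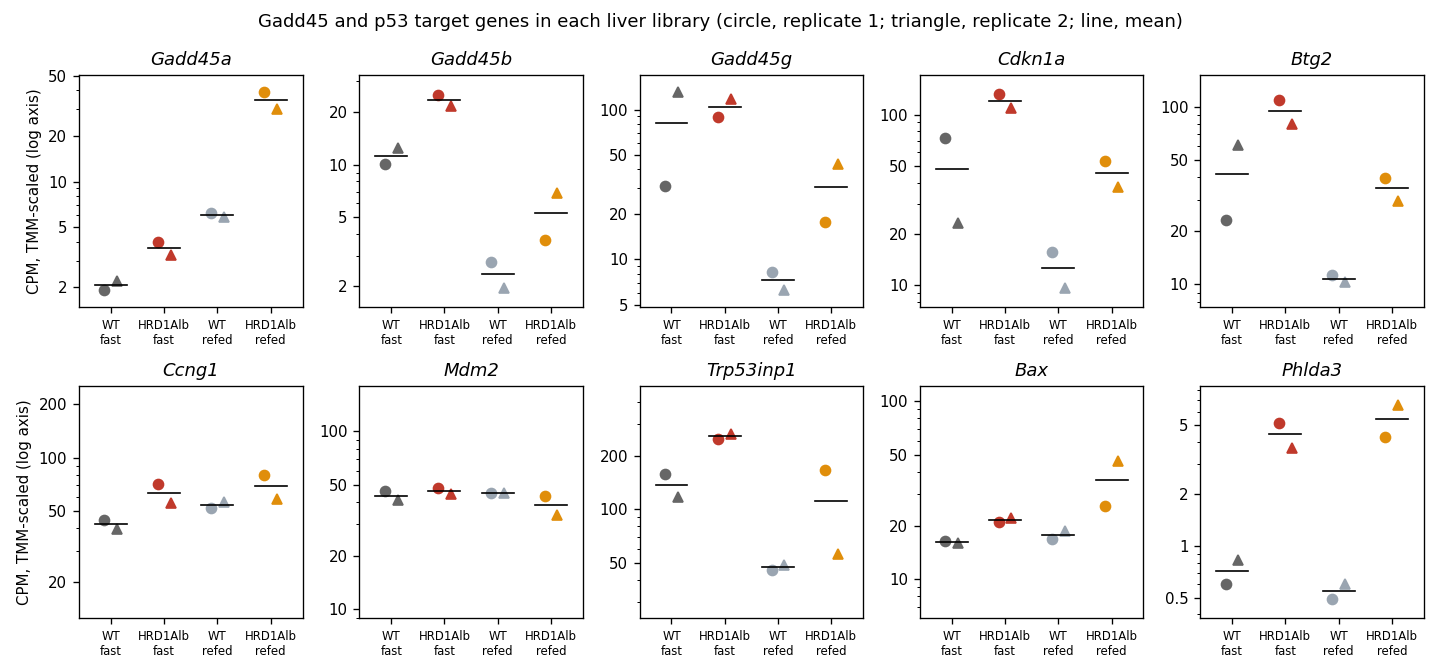
Level of each of the 10 genes in each of the 8 libraries, in TMM-scaled CPM on a log axis, with circles for replicate 1, triangles for replicate 2 and a line at the mean of each group. Gadd45a was highest in refed HRD1Alb liver (39.0 and 29.9 CPM), Gadd45b in fasted HRD1Alb liver (25.2 and 21.7 CPM), and Phlda3 was separated by genotype under both conditions.

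The first question was what HRD1 deletion did to these genes in fasted liver. One gene rose: Phlda3, which encodes a small pleckstrin-homology protein that competes with the kinase Akt for membrane lipids. The other 9 did not pass the test. Called genes were thus 1 of 10, all higher, where 0.921% of all tested genes were called higher, 0.433% lower and 1.35% in either direction. In 8 of the 10 genes both HRD1Alb libraries lay above both WT libraries, a pattern shown by 30.6% of all tested genes, and in none did they lie below, as 34.2% of all genes did. The median difference over the 10 genes was 0.86 on the log2 scale, and -0.02 over all tested genes.

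Of the Gadd45 family, Gadd45a (chr6:67035096-67037457, minus strand) was at 1.92 and 2.21 CPM in fasted WT and at 4.01 and 3.29 CPM in fasted HRD1Alb liver. Both HRD1Alb libraries were above both WT libraries. The difference of 0.82 on the log2 scale did not pass the test (SE 0.218, adjusted p = 0.114). Gadd45b (chr10:80930073-80932204, plus strand) was at 10.03 and 12.5 CPM in fasted WT and at 25.2 and 21.7 CPM in fasted HRD1Alb liver. Again the groups did not overlap, with a log2 difference of 1.06 (SE 0.318, adjusted p = 0.144). Gadd45g (chr13:51846678-51848468, plus strand) was at 30.8 and 131 CPM in fasted WT and at 89.2 and 118 CPM in fasted HRD1Alb liver. The 2 WT values bracketed both HRD1Alb values, and the difference was 0.35 (SE 0.646, adjusted p = 0.831), or -0.35 without WT replicate 1 and 1.78 without WT replicate 2.

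Among the cell cycle genes, Cdkn1a (chr17:29090976-29100727, plus strand) encodes p21, the inhibitor of cyclin-dependent kinases. It was at 73.3 and 23.3 CPM in fasted WT and at 132 and 109 CPM in fasted HRD1Alb liver. The groups did not overlap, but the WT pair was further apart than the group means, and the log2 difference of 1.32 did not pass (SE 0.506, adjusted p = 0.228). It was 2.37 without WT replicate 1 and 0.74 without WT replicate 2. Btg2 (chr1:134075170-134079120, minus strand), an antiproliferative protein that recruits the mRNA deadenylase, was at 23.0 and 60.7 CPM in fasted WT and at 109 and 79.7 CPM in fasted HRD1Alb liver. Its groups did not overlap, with a difference of 1.17 (SE 0.421, adjusted p = 0.201), or 0.63 without WT replicate 1 and 2.06 without WT replicate 2. Ccng1 (chr11:40748552-40755311, minus strand), cyclin G1, which guides protein phosphatase 2A to Mdm2, was at 44.5 and 39.8 CPM in fasted WT and at 70.9 and 55.7 CPM in fasted HRD1Alb liver. The difference of 0.59 was without overlap and did not pass (SE 0.207, adjusted p = 0.194).

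Mdm2 (chr10:117688875-117710758, minus strand), the ligase of p53, was at 46.1 and 40.9 CPM in fasted WT and at 47.8 and 44.3 CPM in fasted HRD1Alb liver. These groups overlapped, with a difference of 0.08 (SE 0.172, adjusted p = 0.857). Trp53inp1 (chr4:11156431-11174379, plus strand), a stress-induced nuclear protein that acts in p53 phosphorylation and in autophagy, was at 157 and 117 CPM in fasted WT and at 248 and 265 CPM in fasted HRD1Alb liver. Both HRD1Alb values were higher, and the difference of 0.91 did not pass (SE 0.442, adjusted p = 0.333). Bax (chr7:45461697-45466898, minus strand), which permeabilizes the outer mitochondrial membrane in apoptosis, was at 16.3 and 15.9 CPM in fasted WT and at 20.8 and 21.9 CPM in fasted HRD1Alb liver. The groups did not overlap and differed by 0.40 (SE 0.264, adjusted p = 0.477).

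Phlda3 (chr1:135766119-135769136, plus strand) was at 0.599 and 0.827 CPM in fasted WT liver, from 24 and 34 counts, and at 5.18 and 3.72 CPM in fasted HRD1Alb liver, from 265 and 205 counts. The HRD1Alb libraries were far above the WT ones, by 2.64 on the log2 scale, or 6.22-fold (SE 0.350, adjusted p = 0.0281). The call was lost when 1 WT library or 1 fasted HRD1Alb library was left out, whichever of the 6 it was. Far fewer of all genes, or none, passed in these fits. The log2 difference stayed between 2.38 and 2.92. Without either refed HRD1Alb library, which do not enter this difference but share the estimate of spread, 6 of the 10 genes were called, and the share of all tested genes called in either direction was 21.7% without replicate 1 and 21.3% without replicate 2.

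HRD1 deletion was next compared in refed liver. Called genes were 4 of 10, all higher in the libraries labelled HRD1Alb: Gadd45a, Btg2, Bax and Phlda3. The background was larger here, with 7.09% of all tested genes called higher, 4.84% lower and 11.9% in either direction. Both HRD1Alb libraries lay above both WT libraries in 9 of the 10 genes, against 30.7% of all genes, and below them in 1, Mdm2, against 30.1% of all genes. The median log2 difference was 1.46 over the 10 genes and 0.04 over all tested genes. With 1 refed HRD1Alb library left out many more genes passed in general. Without replicate 1, 25.0% of all tested genes were called higher and 27.8% lower, and without replicate 2 the shares were 11.9% and 11.7%, against which the calls without either library have to be read.

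**Figure D2:**
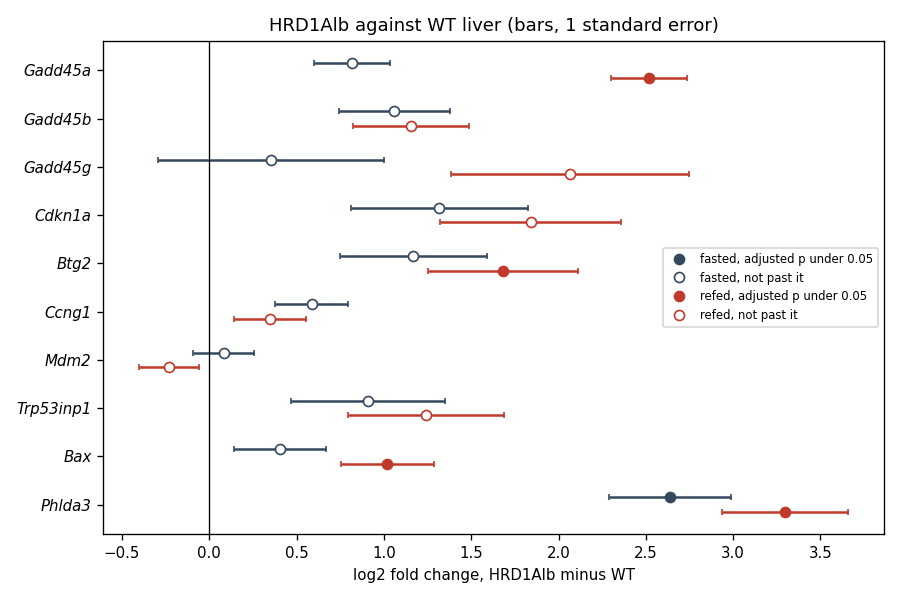
Log2 fold change of HRD1Alb over WT for each gene in fasted (dark blue) and refed (red) liver, with bars of 1 standard error and filled symbols at an adjusted p under 0.05. Phlda3 was the only gene filled under both conditions (2.64 and 3.30), and Gadd45a moved from 0.82 in fasted to 2.52 in refed liver.

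Gadd45a was at 6.17 and 5.86 CPM in refed WT liver and at 39.0 and 29.9 CPM in the refed libraries labelled HRD1Alb. Every HRD1Alb value was several times every WT value. Gadd45a rose by 2.52 on the log2 scale, or 5.72-fold (SE 0.217, adjusted p = 0.00513). Without replicate 2 of the refed HRD1Alb libraries the difference was 2.69 (adjusted p = 0.000417), and without replicate 1 it was 2.31 (adjusted p = 0.000108). Leaving out either WT refed library kept the size, at 2.55 and 2.47, and ended the call. Hardly any gene of the whole set was called in these fits, which leave 1 sample in a group. Exons of Gadd45a share 337 bases (19.1%) with the opposite-strand gene E230016M11Rik, and the strand setting of the counting is not given in the sources used here, so reads of the pair cannot be told apart. That gene had 91 to 98 counts in refed WT and 71 to 73 counts in refed HRD1Alb libraries, where Gadd45a had 223 to 250 and 1364 to 2302 counts. Exons of Cdkn1a and Bax overlap other annotated genes by 273 bases (7.68%) and 192 bases (12.2%), neither of which is listed in the count files.

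Gadd45b was at 2.77 and 1.97 CPM in refed WT and at 3.71 and 6.88 CPM in refed HRD1Alb liver, and Gadd45g was at 8.30 and 6.22 CPM and at 17.9 and 43.1 CPM. Both were higher in each HRD1Alb library, while the HRD1Alb pairs were themselves about 2-fold apart. Neither passed, with log2 differences of 1.16 for Gadd45b (SE 0.334, adjusted p = 0.0642) and 2.07 for Gadd45g (SE 0.682, adjusted p = 0.0861). Without replicate 1 of the refed HRD1Alb libraries both passed, at 1.53 for Gadd45b (adjusted p = 0.00148) and 2.56 for Gadd45g (adjusted p = 0.0165). Without replicate 2 neither did, at 0.64 for Gadd45b (adjusted p = 0.0970) and 1.29 for Gadd45g (adjusted p = 0.213).

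Btg2 was at 11.3 and 10.3 CPM in refed WT and at 39.8 and 29.5 CPM in refed HRD1Alb liver. It rose by 1.68, or 3.21-fold (SE 0.430, adjusted p = 0.0475), close to the threshold. The call remained without replicate 2 of the refed HRD1Alb libraries (1.88, adjusted p = 0.0293) and without replicate 1 (1.44, adjusted p = 0.0370). It was lost without either fasted HRD1Alb library (differences of 1.68 and 1.68), where fewer of all genes passed. It was also lost without either refed WT library (1.75 and 1.62), where hardly any gene passed. Cdkn1a was at 15.7 and 9.66 CPM in refed WT and at 53.5 and 37.5 CPM in refed HRD1Alb liver. Its groups did not overlap, and the difference of 1.84 missed the threshold narrowly (SE 0.518, adjusted p = 0.0597), which it passed without replicate 2 of the refed HRD1Alb libraries (2.07, adjusted p = 0.0379), but not without replicate 1 (1.55, adjusted p = 0.0531), and also passed without either fasted WT library (adjusted p = 0.0343 and 0.0335). Ccng1 was at 52.5 and 56.5 CPM in refed WT and at 79.9 and 58.6 CPM in refed HRD1Alb liver, a difference of 0.35 (SE 0.206, adjusted p = 0.268). Without replicate 2 of the refed HRD1Alb libraries it passed (0.55, adjusted p = 0.0438), and without replicate 1 it was 0.10 (adjusted p = 0.630).

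Mdm2 was at 45.2 CPM in both refed WT libraries and at 43.3 and 33.7 CPM in refed HRD1Alb liver. It was the single gene whose HRD1Alb values were both lower, and the difference of -0.23 did not pass (SE 0.172, adjusted p = 0.361). It was called lower without replicate 1 (-0.43, adjusted p = 0.0180), and was -0.07 without replicate 2 (adjusted p = 0.694). Over all 8 libraries Mdm2 stayed between 33.7 and 47.8 CPM. Trp53inp1 was at 45.5 and 48.6 CPM in refed WT and at 167 and 55.7 CPM in refed HRD1Alb liver. The HRD1Alb pair was about 3-fold apart, and the difference of 1.24 did not pass (SE 0.446, adjusted p = 0.103), though it did without replicate 2 (1.82, adjusted p = 0.00150). Without replicate 1 it was 0.24 (adjusted p = 0.283), so its size turns on which of the pair is used.

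Bax was at 16.8 and 18.7 CPM in refed WT and at 25.9 and 46.3 CPM in refed HRD1Alb liver. It rose by 1.02, or 2.03-fold (SE 0.265, adjusted p = 0.0495), at the edge of the threshold. Without replicate 2 of the refed HRD1Alb libraries the difference was 0.54 (adjusted p = 0.0181), and without replicate 1 it was 1.37 (adjusted p = 0.000122). Without any 1 of the 6 other libraries outside this pair the call was lost, and the difference was 0.94 to 1.09. Fewer of all genes passed in these fits, and hardly any without a refed WT library. Phlda3 was at 0.494 and 0.604 CPM in refed WT liver, from 20 and 23 counts, and at 4.28 and 6.55 CPM in refed HRD1Alb liver, from 253 and 299 counts. It rose by 3.30, or 9.83-fold (SE 0.362, adjusted p = 0.00820). The difference was 2.96 without replicate 2 of the refed HRD1Alb libraries (adjusted p = 0.00248) and 3.57 without replicate 1 (adjusted p = 0.000196). Without either WT refed library its size was 3.16 and 3.44, and the call was lost, as were nearly all calls over the whole set of genes.

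Since these refed results rest on 2 unlike libraries, the ratio of replicate 2 to replicate 1 was set against gene length. Across 12941 tested genes with a length, the ratio fell with the number of exon bases (Spearman's rho = -0.505, across genes, which are not independent replicates). In the other 3 groups rho was between -0.118 and 0.0101. The 4 genes with the fewest exon bases were higher in replicate 2, by 1.27 for Gadd45g (1173 bases), 0.89 for Gadd45b (1589 bases), 0.84 for Bax (1576 bases) and 0.61 for Phlda3 (1559 bases) on the log2 scale. The 6 longer genes were lower in replicate 2, from -0.36 for Mdm2 (5083 bases) to -1.58 for Trp53inp1 (6475 bases). A fit with an offset for transcript length gave 2.20 for Gadd45a (adjusted p = 0.00713), 2.85 for Phlda3 (adjusted p = 0.00417), 0.55 for Bax (adjusted p = 0.0312) and 1.50 for Btg2 (adjusted p = 0.0513) in refed liver. Trp53inp1 passed in that fit (1.31, adjusted p = 0.0461). The other values were 0.68 for Gadd45b (adjusted p = 0.0753), 1.44 for Gadd45g (adjusted p = 0.119), 1.74 for Cdkn1a (adjusted p = 0.0565), 0.24 for Ccng1 (adjusted p = 0.410) and -0.20 for Mdm2 (adjusted p = 0.289).

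**Figure D3:**
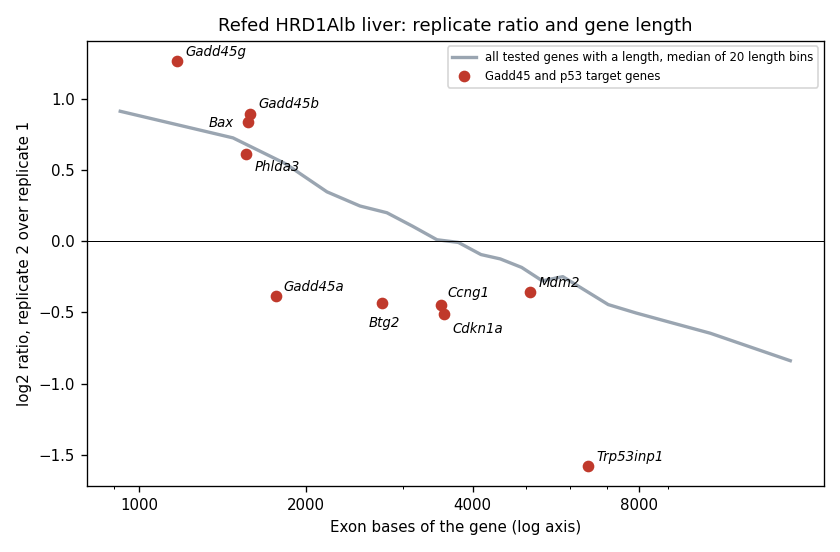
Log2 ratio of replicate 2 to replicate 1 of the refed HRD1Alb libraries against exon bases (log axis), with the 10 genes as red points and the medians of 20 length bins of all tested genes as a grey line. The line falls from 0.91 in the shortest bin to -0.84 in the longest, and Gadd45a (-0.38) lies below it while Gadd45g (1.27) lies above it.

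Refeeding was then compared with fasting, first in WT liver. The 3 Gadd45 genes went different ways. Gadd45a rose from 1.92 and 2.21 to 6.17 and 5.86 CPM, or 1.54 on the log2 scale and 2.91-fold (SE 0.219, adjusted p = 0.0259). Gadd45b fell from 10.03 and 12.5 to 2.77 and 1.97 CPM, a change of -2.25 or 4.75-fold lower (SE 0.340, adjusted p = 0.0292). In both genes the refed and fasted libraries were far apart. Both calls were lost when 1 WT or fasted HRD1Alb library was left out, in fits where far fewer of all genes, or none, passed. The change stayed at 1.44 to 1.68 for Gadd45a and at -2.52 to -2.02 for Gadd45b. Gadd45g went from 30.8 and 131 to 8.30 and 6.22 CPM, a difference of -3.48 that did not pass (SE 0.718, adjusted p = 0.0556) and was -4.17 without fasted WT replicate 1 and -2.06 without fasted WT replicate 2. Called genes were thus 1 higher and 1 lower of 10, against 1.20% and 1.41% of all tested genes, and 2.61% in either direction.

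Cdkn1a, Btg2 and Trp53inp1 were also lower in both refed WT libraries than in both fasted ones, without passing the test. Their log2 differences were -1.93 for Cdkn1a (adjusted p = 0.117), -1.96 for Btg2 (adjusted p = 0.0712) and -1.54 for Trp53inp1 (adjusted p = 0.140). Without fasted WT replicate 1 the difference of Cdkn1a was -0.87 and that of Btg2 -2.49, and without fasted WT replicate 2 they were -2.50 and -1.06. All 3, and Gadd45g, passed when either refed HRD1Alb library was left out, with adjusted p from 0.00133 to 0.0399, where 17.2% and 17.0% of all tested genes passed, and Btg2 did so without replicate 1 of fasted WT (adjusted p = 0.0474). The other 4 genes differed by 0.37 for Ccng1 (adjusted p = 0.452), 0.14 for Bax (adjusted p = 0.870), 0.05 for Mdm2 (adjusted p = 0.932) and -0.38 for Phlda3 (adjusted p = 0.720). In all, refed and fasted WT libraries did not overlap for 3 genes that were higher and 5 that were lower on refeeding, against 30.8% and 29.6% of all genes. The median over the 10 genes was -0.96, and 0.00 over all tested genes.

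In HRD1Alb liver refeeding gave the same 2 calls. Gadd45a rose from 4.01 and 3.29 to 39.0 and 29.9 CPM, by 3.24 on the log2 scale or 9.44-fold (SE 0.223, adjusted p = 0.00310). Gadd45b fell from 25.2 and 21.7 to 3.71 and 6.88 CPM, a change of -2.15 or 4.44-fold lower (SE 0.330, adjusted p = 0.0128). Without replicate 2 of the refed HRD1Alb libraries the changes were 3.42 for Gadd45a (adjusted p = 0.000330) and -2.66 for Gadd45b (adjusted p = 0.00124), and without replicate 1 they were 3.03 (adjusted p = 6.35e-05) and -1.77 (adjusted p = 0.000777). The call of Gadd45b was lost without either fasted HRD1Alb library (-2.04 and -2.26), where far fewer of all genes passed. Of all tested genes 5.43% were called higher, 5.05% lower and 10.5% in either direction. Refed and fasted libraries did not overlap for 2 genes that were higher and 6 that were lower, against 29.2% and 29.5% of all genes, and the medians were -0.73 over the 10 genes and 0.02 over all tested genes.

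The other 8 genes did not pass in HRD1Alb liver. Gadd45g went from 89.2 and 118 to 17.9 and 43.1 CPM (-1.77, adjusted p = 0.124), and Cdkn1a from 132 and 109 to 53.5 and 37.5 CPM (-1.40, adjusted p = 0.114). The refed libraries were lower in both cases, and likewise for Btg2 (-1.44, adjusted p = 0.0707) and Trp53inp1 (-1.21, adjusted p = 0.118). Bax differed by 0.76 (adjusted p = 0.106), Mdm2 by -0.26 (adjusted p = 0.328), Ccng1 by 0.13 (adjusted p = 0.689) and Phlda3 by 0.28 (adjusted p = 0.557). Without replicate 1 of the refed HRD1Alb libraries, Trp53inp1 (-2.21, adjusted p = 0.000143), Bax (1.11, adjusted p = 0.000196), Btg2 (-1.68, adjusted p = 0.0289) and Mdm2 (-0.45, adjusted p = 0.0143) passed, where 51.4% of all tested genes did. Without replicate 2 Trp53inp1 passed (-0.62, adjusted p = 0.0490), where 19.7% of all did. Gadd45g was -1.27 without replicate 1 and -2.54 without replicate 2, and neither value passed (adjusted p = 0.179 and 0.0603). Btg2 also passed without either fasted WT library (adjusted p = 0.0370 and 0.0333). Phlda3 kept apart by genotype, at 3.72 to 6.55 CPM in the 4 HRD1Alb libraries and 0.494 to 0.827 CPM in the 4 WT libraries. Its fasted and refed libraries overlapped in each genotype. Bax was apart by genotype as well, at 20.8 to 46.3 CPM in the 4 HRD1Alb libraries and 15.9 to 18.7 CPM in the 4 WT libraries.

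**Figure D4:**
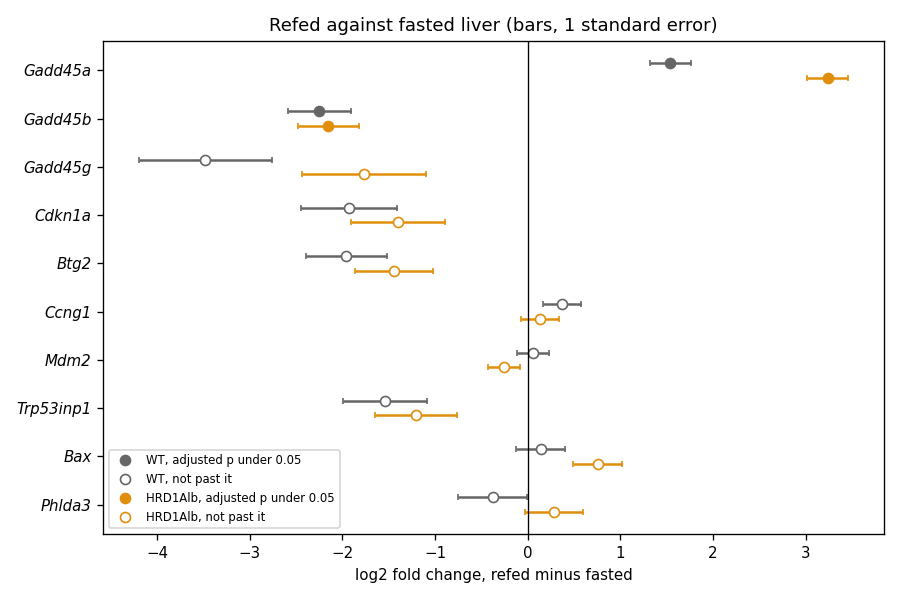
Log2 fold change of refed over fasted liver for each gene in WT (grey) and HRD1Alb (orange) mice, with bars of 1 standard error and filled symbols at an adjusted p under 0.05. Gadd45a (1.54 and 3.24) and Gadd45b (-2.25 and -2.15) were filled in both genotypes and lie on opposite sides of 0.

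Whether the response to refeeding differed between genotypes was tested by the interaction. None of the 10 genes was called, where 0% of all tested genes were called higher, lower or in either direction. At an unadjusted p under 0.05 there was 1 gene of the 10, Gadd45a, and 1209 of all 14328. The refeeding change of Gadd45a was larger by 1.70 on the log2 scale in HRD1Alb liver (SE 0.301, unadjusted p = 0.000649, adjusted p = 0.544). DESeq2 called it (adjusted p = 0.00175), among 57 genes called higher and 48 lower, and limma-trend called no gene. The interaction of Gadd45a was also called when either refed HRD1Alb library was left out (1.49 without replicate 1, adjusted p = 0.00412, and 1.88 without replicate 2, adjusted p = 0.0378). Without replicate 1, Bax (0.97, adjusted p = 0.00286) and Mdm2 (-0.51, adjusted p = 0.0363) were called too. The share of all tested genes called was 33.4% without replicate 1 and 0.690% without replicate 2. Gadd45g had an interaction of 1.71 (adjusted p = 0.614). The adjusted p of the other 8 genes was between 0.626 and 0.939. The median interaction was 0.52 over the 10 genes and 0.03 over all tested genes.

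Levels can be compared between the genes only per length, as CPM per kilobase of exon. On that scale Gadd45g had the highest mean of the 10 in fasted WT (69.1), fasted HRD1Alb (88.3) and refed HRD1Alb liver (26.0). In refed HRD1Alb liver this held for replicate 2 only, where Gadd45g was at 36.7. In replicate 1 Gadd45g was at 15.2, and Trp53inp1 was highest at 25.7. In refed WT liver Ccng1 was highest (15.5). The lowest mean was that of Phlda3 in fasted and refed WT liver (0.457 and 0.352), and of Gadd45a in fasted HRD1Alb liver (2.07). In refed HRD1Alb liver it was that of Gadd45b (3.33). There Gadd45b was lowest in replicate 1 (2.33, with Phlda3 at 2.75), and Phlda3 in replicate 2 (4.20, with Gadd45b at 4.33). Gadd45a, ordered by group, was lowest in fasted WT, then fasted HRD1Alb, then refed WT, and highest in refed HRD1Alb liver, and no pair of neighbours in that order overlapped.

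Likeness of profile was measured as the root mean square difference between log2 CPM values centred over the 8 libraries, among 11918 tested genes with a mean of at least 1 CPM. Gadd45b and Gadd45g were 0.60 apart on this measure, and Gadd45a was 2.38 and 2.54 from them. Cdkn1a and Trp53inp1 were 0.59 apart, and Gadd45b and Btg2 0.58. Outside the 10 genes, those nearest to Gadd45a were Dynll1 (0.38) and Ccne1 (0.40). Nearest to Gadd45b were the metallothionein gene Mt1 (0.22), Tmem136 (0.24) and BC030867 (0.32), and nearest to Gadd45g were Fst (0.52), Mt2 (0.53) and Ntf3 (0.54). Zfp423 (0.42), Il1rn (0.43) and Map3k6 (0.45) were nearest to Cdkn1a. Mt1 was at 158 and 153 CPM in fasted WT, 362 and 256 CPM in fasted HRD1Alb, 29.3 and 31.4 CPM in refed WT and 41.5 and 107 CPM in refed HRD1Alb liver, the same order of groups as Gadd45b.

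Further p53 targets were described from a list of 36 genes, of which 31 were tested. In fasted liver 3 were called higher and none lower with HRD1 deletion, with a median of 0.35. They were the TNF receptor family gene Eda2r (0.399 and 0.341 CPM in WT, 5.12 and 2.22 CPM in HRD1Alb), and the mitotic genes Psrc1 (0.175 and 0.0973 CPM, then 1.64 and 0.944 CPM) and Gtse1 (0.798 and 0.681 CPM, then 2.93 and 2.69 CPM). Their adjusted p values were 0.0484 for Eda2r and 0.0438 for Psrc1 and for Gtse1. These 3 of 31 stand beside 0.921% of all genes called higher. In refed liver 4 were called higher and 1 lower, beside 7.09% and 4.84% of all genes, with a median of 0.26. Without replicate 1 of the refed HRD1Alb libraries 5 were higher and 7 lower, and without replicate 2 the counts were 8 and 3. Many more of all tested genes were called in those fits as well. The stress cytokine Gdf15 was at 3.23 and 2.73 CPM in refed WT and 30.3 and 31.3 CPM in refed HRD1Alb liver (adjusted p = 0.0137). The death receptor gene Tnfrsf10b was at 0.444 and 0.184 CPM and at 1.32 and 1.21 CPM (adjusted p = 0.0323). Psrc1 was again called, from WT levels near the floor of 3 counts (0.123 and 0.0525 CPM). Trp53inp2, an autophagy gene related to Trp53inp1, fell from 248 and 232 CPM in refed WT to 135 and 138 CPM in refed HRD1Alb liver (adjusted p = 0.0283). Across all alternative settings the number called higher ran from 0 to 9 in fasted and from 0 to 8 in refed liver, and the number called lower from 0 to 2 and from 0 to 7.

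Of 17 tested genes that encode p53 or its regulators, 1 was called under each condition, the DNA damage kinase gene Chek1, at 0.274 and 0.389 CPM in fasted WT and 1.72 and 2.02 CPM in fasted HRD1Alb liver (adjusted p = 0.0339). In refed liver it was at 0.988 and 0.945 CPM and at 3.10 and 2.08 CPM (adjusted p = 0.0371). The medians of this list were -0.05 and -0.33. Among 11 CDK inhibitor and antiproliferative genes none was called in fasted liver and 1 in refed liver, Cdkn2c, which encodes p18, at 3.36 and 4.12 CPM in WT and 9.89 and 10.8 CPM in HRD1Alb liver (adjusted p = 0.0111). Of 18 BCL2 family genes none was called in fasted and 2 were called higher in refed liver. These were Bcl2a1b, a pro-survival gene of white blood cells (0.198 and 0.184 CPM, then 1.69 and 3.05 CPM, adjusted p = 0.0111), and Bok, a relative of Bax (4.52 and 4.07 CPM, then 8.80 and 12.7 CPM, adjusted p = 0.0185). These refed counts of 1 of 17, 1 of 11 and 2 of 18 are at or below the 11.9% of all genes called in either direction. In fasted liver, where 1 of the 17 was called, the share of all genes was 1.35%. With either refed HRD1Alb library left out, the calls of these 3 lists changed, and many more of all tested genes were called. Without replicate 1 more p53 regulators were called lower than higher. That fit rests on replicate 2 alone, in which longer genes were lower than in replicate 1. The part of gene length in these calls was not tested.

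Of 15 tested genes for binding partners of the GADD45 proteins, none was called in fasted liver, and 1 was called higher and 2 lower in refed liver. The higher one was Cdk1, the mitotic kinase (1.14 and 0.788 CPM, then 1.96 and 4.10 CPM, adjusted p = 0.0412). The lower ones encode nuclear receptors. Ppara was at 219 and 227 CPM in refed WT and 74.6 and 63.7 CPM in refed HRD1Alb liver (adjusted p = 0.00817), and Rxra at 433 and 423 CPM and at 260 and 294 CPM (adjusted p = 0.0409). Of 21 death receptor and caspase genes none was called in fasted liver. In refed liver Tnfrsf12a, a TNF receptor family gene that is not itself a death receptor, was higher (6.91 and 5.38 CPM, then 42.0 and 47.7 CPM). Casp9 was lower there (19.8 and 22.6 CPM, then 12.9 and 12.1 CPM). Both lists stand beside 7.09% of all tested genes called higher and 4.84% lower in refed liver. In fasted liver 1.35% of all were called in either direction. Leaving out replicate 1 of the refed HRD1Alb libraries, the partners had 4 higher and 8 lower and the death receptor and caspase genes 4 and 8, and without replicate 2 the counts were 1 and 4, and 2 and 4. Those fits called many more of all tested genes too, and the 1 without replicate 1 rests on replicate 2, in which longer genes were lower. Cdk1 had a log2 difference of 1.65 with both libraries, 2.08 without replicate 1 and 1.02 without replicate 2. The genes named from these lists in refed liver were called without either library too.

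Markers of some other liver cells moved with genotype, and all are given beside these results. The 5 hepatocyte markers summed to 124367 to 136140 CPM in fasted WT, 77966 to 80165 CPM in fasted HRD1Alb, 99603 to 106889 CPM in refed WT and 58009 to 98634 CPM in refed HRD1Alb liver, and none of the 5 was called. Of the 5 Kupffer cell and macrophage markers in the files, 1 was called higher in fasted liver, Cd68, and 5 of 5 in refed liver. Their sum was 62.5 to 72.8 CPM in fasted WT, 163 to 216 CPM in fasted HRD1Alb, 69.4 to 72.1 CPM in refed WT and 144 to 297 CPM in refed HRD1Alb liver. Stellate cell markers summed to 166 to 326, 394 to 406, 154 to 190 and 319 to 425 CPM in the same order, with 2 of 6 called higher in refed liver. Cycling cell markers summed to 3.24 to 4.67, 13.5 to 15.7, 3.18 to 4.10 and 8.90 to 11.9 CPM, with 3 of 5 called higher in refed liver. Lymphocyte markers summed to 1.48 to 1.80, 2.66 to 3.58, 1.86 to 2.47 and 3.15 to 5.87 CPM in that order. Endothelial markers summed to 83.7 to 92.8, 91.3 to 102, 86.6 to 99.9 and 105 to 107 CPM, apart by genotype in refed liver only. Cholangiocyte markers summed to 42.3 to 68.3, 32.7 to 37.0, 32.1 to 36.0 and 29.1 to 52.9 CPM. They were thus lower in fasted HRD1Alb than fasted WT liver and overlapped in refed liver. No endothelial, cholangiocyte or lymphocyte marker was called. These marker calls stand beside 0.921% of all tested genes called higher in fasted and 7.09% in refed liver. With replicate 1 of the refed HRD1Alb libraries left out, 5 Kupffer, 2 stellate, 5 cycling, 3 lymphocyte and 1 endothelial marker were higher and 1 endothelial marker lower. Without replicate 2 the higher ones were 5 Kupffer, 3 stellate, 2 cycling and 1 endothelial marker, and 3 hepatocyte markers were lower. As for the other lists, many more of all tested genes were called in these fits. No marker was at 0 in any library. The part of these cells in the levels of the 10 genes was not tested.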

How the data were processed

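Liver RNA from 8 mouse samples was sequenced on an Illumina NextSeq 500. The deposited values are raw counts per gene, 1 file for each sample. The study's methods name ERANGE for counting, and the submitters' processing notes list cutadapt, STAR, HTSeq, DESeq2 and mm10, with no role given. Groups were taken from the labels. The 10 genes and all gene and marker lists were chosen with earlier results of these data known.

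The model was fitted with edgeR 4.0.16 in R 4.3.3, using filterByExpr (minimum count 10, minimum total 15), TMM factors (0.837 to 1.22) and 1 quasi-likelihood model of 4 groups over 8 samples (common dispersion 0.0573), with 5 contrasts and Benjamini-Hochberg adjustment over 14328 genes. The study used limma. Each standard error is the absolute log2 difference over the root of its F value. Log CPM used a prior count of 1. An exact permutation test of 2 against 2 cannot go below p = 0.333, so none was used. Alternatives were RLE factors, no filter, at least 10 counts in every sample, 4 samples only, a replicate block, a transcript length offset, each library left out, limma-trend (limma 3.58.1) and DESeq2 1.42.0. The main fit was tested on simulated counts with the same dispersion for every gene. These held no length-dependent difference between replicates, so the test does not cover the refed HRD1Alb pair. Named genes were the 10 members, Syvn1, Trp53, the 3 nearest profiles to each Gadd45 gene and Cdkn1a (1 of them is not reported here), and in each list up to 3 called genes with the largest change in each direction. Gene positions and lengths come from GENCODE M21 (GRCm38), in which 20916 symbols (89.6%) had a length.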

Additional observations from a re-analysis of the deposited data

How the results depend on the processing

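Of the values of the 10 genes under the alternatives, 703 kept their direction and their side of the threshold, 76 passed it, 46 no longer did and 15 changed direction. Genes called in the fasted deletion comparison (1) were 5 with only the 4 samples compared, 2 with the length offset, 3 with DESeq2 and 0 to 6 with 1 library left out. For the refed deletion comparison (4) they were 0 with 4 samples, 8 with DESeq2 and 0 to 7 with 1 library left out. For refeeding in WT liver (2) they were 4 without the filter, 5 with 4 samples, 4 with the length offset, 4 with the offset and the replicate block, 6 with DESeq2 and 0 to 6 with 1 library left out. For refeeding in HRD1Alb liver (2) they were 0 with 4 samples, 4 with the offset, 4 with the offset and block, 6 with DESeq2 and 1 to 6 with 1 library left out. For the interaction (0) they were 1 with DESeq2 and 0 to 3 with 1 library left out. Calls over all tested genes moved too. With 4 samples, deletion gave 1152 genes higher and 881 lower in fasted liver, and 0 either way in refed liver. Refeeding gave 909 and 973 in WT liver and 0 either way in HRD1Alb liver. DESeq2 called 632 higher and 462 lower with deletion in fasted liver, and 1704 and 1486 in refed liver. On refeeding DESeq2 called 496 and 590 in WT and 1534 and 1387 in HRD1Alb liver. The cause of these changes was not tested, nor was the part of the fewer degrees of freedom that fewer samples leave.

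Log2 differences between replicate 1 and replicate 2, taken gene by gene, correlated between groups at r from 0.0161 to 0.179 over 6 pairs of groups. Not all were above 0.1, so the numbers are not taken to pair the samples. The replicate block gave 1, 3, 2, 3 and 0 called genes in the 5 comparisons. With it Btg2 and Bax had adjusted p of 0.0626 and 0.0524 in refed liver, and Cdkn1a 0.0284.

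Changes of direction all concerned values that were not called. With 1 library left out, Gadd45g in fasted liver ran from -0.35 to 1.78, Ccng1 on refeeding in HRD1Alb liver from -0.12 to 0.34, and Phlda3 there from -0.056 to 0.56 (-0.17 with the length offset, alone or with the block). Interactions ran from -0.42 to 0.47 for Gadd45b (-0.31 with the offset, -0.30 with the block added), -0.53 to 1.10 for Cdkn1a, -0.38 to 1.05 for Btg2 and -0.67 to 0.92 for Trp53inp1.

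Over all genes, 132 were called higher and 62 lower in fasted liver, against 323 and 257 with the length offset. In refed liver they were 1016 and 693, against 1022 and 1133 with the offset and the block. With 2 samples in each group, a difference that misses the threshold does not show that the groups were alike.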

Other observations

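Genes that respond to ATF4 and CHOP, the transcription factors of the ER and amino acid stress response, were counted because Gadd45a and Ddit3 belong to the same historical group of growth arrest and DNA damage genes. Of 19 tested genes of this list, 3 were called higher in fasted HRD1Alb liver and 12 in refed HRD1Alb liver, and none lower. Over all tested genes, 0.921% were called higher in fasted and 7.09% in refed liver. The median difference was 1.34 in fasted and 3.07 in refed liver, beside -0.02 and 0.04 over all tested genes. Ddit3, which encodes CHOP, was at 6.66 and 5.62 CPM in fasted WT and 15.5 and 14.8 CPM in fasted HRD1Alb liver, and at 16.1 and 11.3 CPM in refed WT and 251 and 241 CPM in refed HRD1Alb liver. Nupr1, a small stress-induced nuclear protein, was at 2.02 and 0.998 CPM in refed WT and 99.4 and 62.7 CPM in refed HRD1Alb liver. Psat1, an enzyme of serine synthesis, was at 1.04 and 0.893 CPM and at 65.0 and 29.0 CPM. The cystine transporter gene Slc7a11 was at 0 counts in all 4 WT libraries and at 3.13 and 0.548 CPM in refed HRD1Alb liver. Without replicate 1 of the refed HRD1Alb libraries 13 were called higher in refed liver, and 16 without replicate 2. The number called higher under the alternatives ran from 0 to 11 in fasted and from 0 to 16 in refed liver.

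Immediate early genes, which are transcribed within minutes of a growth factor or stress signal, were called in neither direction in fasted liver (median 0.21 over 18 tested genes). In refed HRD1Alb liver 5 were called higher and none lower, beside 7.09% and 4.84% of all tested genes, with a median of 1.51. Egr1 was at 12.7 and 6.33 CPM in refed WT and 46.5 and 137 CPM in refed HRD1Alb liver, and its call was lost without replicate 2 of the latter (adjusted p = 0.0664). Ier5 was at 6.30 and 6.33 CPM and 26.4 and 25.1 CPM. Egr2 was at 0.0494 and 0.0263 CPM in refed WT liver, under the level of 3 counts, and at 0.762 and 0.416 CPM in refed HRD1Alb liver. Without replicate 1 of the refed HRD1Alb libraries 6 were higher and 1 lower, and without replicate 2 the counts were 6 and 0. Far more of all tested genes were called in those fits. In fasted WT liver Egr1 was 17.1 CPM in replicate 1 and 75.4 CPM in replicate 2. In these 2 libraries Gadd45g was at 30.8 and 131 CPM and Btg2 at 23.0 and 60.7 CPM. Cdkn1a went the other way, at 73.3 and 23.3 CPM, and so did Trp53inp1, at 157 and 117 CPM.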
